A study of Mus musculus with 8 samples.

Results

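Mitochondrial ribosomal protein genes were examined in sperm small RNA from control and ethanol-treated mice. They were taken as every gene whose symbol begins with Mrpl or Mrps followed by a digit, and the counts of a gene's exons were summed. This gave 77 genes, 48 Mrpl and 29 Mrps, of 19223 genes with mRNA exon counts and of 45090 features of all RNA classes. These symbols stand for proteins of the ribosome that works inside mitochondria, and 50 genes were counted with its large subunit and 27 with its small subunit. The large subunit set includes Mrps18a and Mrps30, whose proteins sit in the large subunit in spite of their symbols. Mrps36 was kept with the small subunit by its symbol, although its product is now known as a subunit of the 2-oxoglutarate dehydrogenase complex, and it had too few counts for a test.

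The mitochondrial ribosome translates the few proteins encoded by mitochondrial DNA, all of them core subunits of the respiratory chain and of the ATP synthase. Its ribosomal RNAs come from the mitochondrial genome, while its proteins are made in the cytosol from nuclear genes and imported. Some of these proteins descend from bacterial ribosomal proteins and others were gained by mitochondria. Of the 77 genes here, 46 were counted as having a bacterial counterpart and 31, Mrps36 among them, as mitochondria-specific. The 31 also include Mrps18a and Mrps18b, although their proteins are paralogs of a bacterial ribosomal protein. Mature sperm are largely silent in transcription, and their small RNA libraries hold short pieces of mRNAs, so the counts below describe fragments and not intact messages.

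The labels describe 4 control and 4 ethanol samples of mouse sperm, with RNA extracted by Trizol and libraries made with Qiaseq small RNA reagents. The series title places the samples after a month without alcohol and names mitochondrial dysfunction of the epididymis, the duct in which sperm mature, as its subject. Strain, genotype, age, dose and length of exposure are not given in the sources used here. Nothing in the labels ties a group's samples to different animals, and the p-values below therefore cover the spread between these samples, which may be technical. The sample codes begin with POCM for the controls, with POM for ethanol replicates 1 and 2, and with POEM for ethanol replicates 3 and 4. What these codes stand for is not given.

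The libraries held 3481865 to 6975180 counts, and 597, 558, 560 and 752 of them fell on these genes in control replicates 1 to 4 against 1754, 2467, 1473 and 1476 in ethanol replicates 1 to 4. Ethanol replicate 2 stood apart from the other libraries. mRNA exons took 29.3% of its counts (95% Wilson interval 29.3 to 29.4, counting error only), against 6.94% to 9.73% in the other ethanol libraries and 5.08% to 5.81% in the controls. Markers of some other cells differed between the groups as well. The summed level of 19 genes of epididymal epithelium was 408.5 to 717 CPM (counts brought to a common library size, with TMM scaling) in the controls and 918 to 11739 CPM in the ethanol libraries, with ethanol replicate 2 highest, and none of the 19 was at 0 in all libraries. Of its 9 tested genes 8 were higher in ethanol, among them the keratin genes Krt8 and Krt18 and the tight junction gene Cldn3. Crisp1 made up most of the epididymal sum, with means of 488 CPM in control and 3478 CPM in ethanol libraries, and 9631 CPM in ethanol replicate 2. Cst12 had a lower mean in ethanol and was too sparse to test. For 11 genes of blood and immune cells the sum was 93.9 to 132 CPM and 184 to 2715 CPM, again with none at 0 throughout. Cd52, a surface protein of white blood cells and of epididymal epithelium, made up most of that sum. Of 6 tested genes 1, Cd52, was higher in ethanol and 2, the haemoglobin genes Hba-a1 and Hba-a2, were lower. The median log2 fold change of the 6 was -1.66, and 1 was positive. S100a8 also had a higher mean in ethanol, while Hbb-bs, Hbb-bt, Alas2, Ptprc, Lyz2, S100a9 and Cd74 had lower ones. Of all mRNA exon features tested, 23.8% were higher and 0.153% lower. For 6 genes of testis somatic cells the sums overlapped, at 2.88 to 11.0 CPM and 4.84 to 17.3 CPM, with none at 0 throughout. Of these 6 genes 0 had enough counts for a test. Sox9 had a higher mean in ethanol (1.16 CPM in control, 5.50 in ethanol), while Cldn11, Cyp17a1, Cyp11a1, Star and Insl3 had lower ones. The 15 markers of spermatids and sperm, which include the protamines, summed to 659 to 849 CPM in control and 254 to 720 CPM in ethanol libraries. Of 14 tested 0 were called in either direction by edgeR, with 0 higher and 2 lower at an unadjusted p under 0.05. Of the 14 log2 fold changes 0 were positive, with a median of -0.53, and the untested Spaca1 also had a lower mean in ethanol. The part of these markers in the results below was not tested, and in bulk RNA fewer cells of a type and less RNA per cell cannot be told apart.

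Fragments of mitochondrial ribosomal protein mRNAs took a larger share of all counts in each ethanol library than in any control library. The share was 0.0134% ± 0.00128 in control and 0.0356% ± 0.0236 in ethanol libraries (SD, n = 4 each). Ethanol replicate 2 had 0.0709% (95% Wilson interval 0.0681 to 0.0737) and the other ethanol libraries 0.0211% to 0.0256%, all above the highest control at 0.0153%. Among mRNA exons alone they made up 0.245% ± 0.0280 of mRNA exon counts in control and 0.274% ± 0.0302 in ethanol libraries, and the groups overlapped. Mrps25, the gene with the most counts, made up a large part of this share. Without Mrps25 the share was 0.137% ± 0.00701 in control and 0.201% ± 0.0261 in ethanol, with no overlap.

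**Figure D1:**
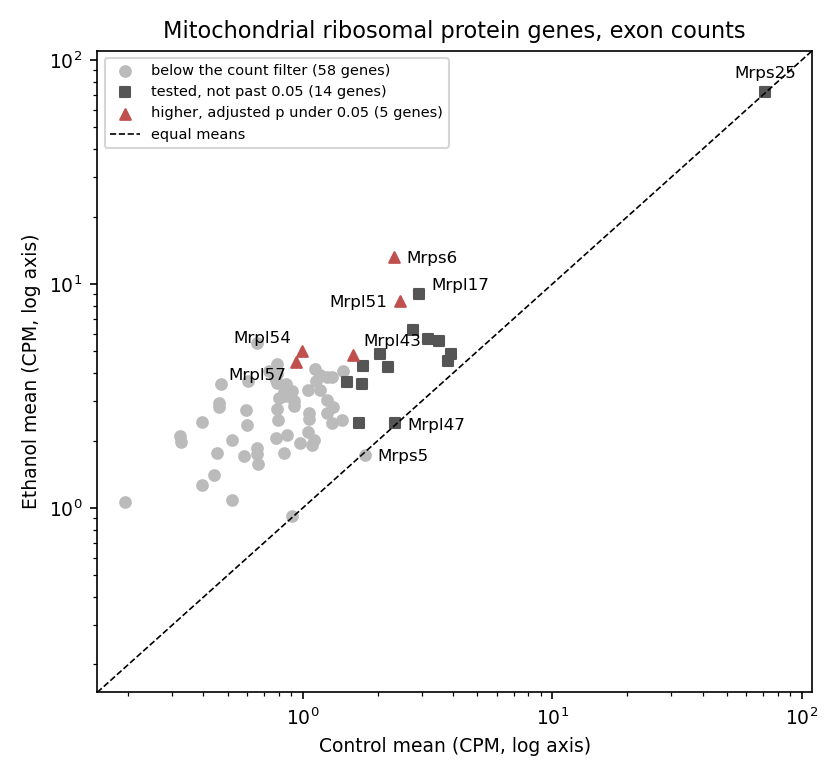
Mean level of each of the 77 genes in 4 control (horizontal axis) and 4 ethanol libraries (vertical axis), in CPM on log axes, with 1 point a gene. All points but that of Mrps5 lie above the dashed line of equal means, those of Mrps25, Mrpl47 and Mrps31 by under 2%.

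Single genes were sparse. A gene had 25 to 2730 counts over the 8 libraries with a median of 83, and the second highest was Mrps6 with 314. All 77 genes had counts in every ethanol library, whereas 19 had a 0 in at least 1 control library. Mean CPM was higher in ethanol for 76 of 77 genes, beside 79.4% of 11953 genes with at least as many mRNA exon counts as the lowest of the 77, the exception being Mrps5 (1.78 ± 0.546 CPM in control, 1.73 ± 1.32 in ethanol, and 1.11 without ethanol replicate 2). Scaled by library totals it was higher for 77 genes, beside 85.3% of the 11953, and scaled by mRNA exon totals for 65, beside 49.6%. For 73 of the 77 genes the highest library was ethanol replicate 2. The share of all genes that were highest there was not taken, and mRNA exons as a whole took 29.3% of that library's counts.

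Every ethanol library lay above every control library for 23 of the 77 genes, or 29.9%. Of the same 11953 genes 21.3% did so, which is the background for this count. Scaled by library totals the figures were 28 genes and a background of 24.3%, and scaled by mRNA exon totals 11 genes and a background of 6.32%. No gene had all ethanol libraries below all controls under any of the 3 scalings, against backgrounds of 1.17%, 0.761% and 7.05%. Of the other genes, 24 had 3 of 4 ethanol libraries above the highest control, 16 had 2, 13 had 1 and Mrpl47 had 0. These last counts were not set beside a background.

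Enough counts for a test were reached by 19 of the 77 genes. Of these, 5 were higher in ethanol and 0 lower (edgeR quasi-likelihood test, Benjamini-Hochberg adjusted over 13515 features, threshold 0.05), which is 26.3% beside 23.8% of 6545 mRNA exon features tested and 11.9% of all features. In the other direction the backgrounds were 0.153% and 1.75%, and 0 of the 19 had an unadjusted p under 0.05 for a lower level, as against 10 for a higher one. By the DESeq2 Wald test 6 were higher (31.6%, beside 34.6% of mRNA exon features) and 0 lower, and by limma-voom 0 in either direction (beside 0.0%), with 8 genes at an unadjusted p under 0.05. No share over all features was taken at the unadjusted threshold, so the counts of 10 and 8 have no background and are a description. The 19 fitted log2 fold changes ran from 0.01 to 2.50 with a median of 1.15, beside a median of 0.88 for mRNA exon features and -0.01 for all features. Many genes passed the count filter through their ethanol libraries, so the median of the 19 is a description and stands for no average over the 77. Without ethanol replicate 2 the count was 4 of 20 and the median 0.68, beside 14.0% and 0.50 for mRNA exons. Without any single control library 0 genes passed, while of the mRNA exon features 0 passed without control replicate 1, 2 or 3 and 1 without control replicate 4 (0.0136%). Without ethanol replicate 3 the count was 18 of 32, beside 36.5% of mRNA exon features.

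With mRNA exon features alone in the fit, which sets these genes against other mRNAs, 0 of 19 were called in either direction (edgeR, background 0.0% of 6965 features), and 3 had an unadjusted p under 0.05. The count of 3 also has no background at that unadjusted threshold. The median log2 fold change was then 0.19 beside 0.02 for all mRNA exon features, 13 of the 19 were positive, and limma-voom also called 0. The 3 were Mrps6 (log2 fold change 1.43 ± 0.47 SE, edgeR adjusted p = 0.0942), Mrpl51 (0.91 ± 0.33, 0.107) and Mrpl57 (1.35 ± 0.51, 0.117). In that fit Mrpl54 and Mrpl49 no longer reached the count filter and Mrpl50 and Mrps26 did. Leaving out ethanol replicate 3 gave 2 of 13 genes, beside 13.3% of mRNA exon features. Leaving out ethanol replicate 2 gave 0, beside 2.76%.

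Large subunit genes held 4 of the 5 calls. Of 13 tested large subunit genes 4 were higher, with a median log2 fold change of 1.26, and of 6 small subunit genes 1, with a median of 1.04. All 4 of the large subunit calls were mitochondria-specific proteins, a class with 9 tested genes, while of 10 tested genes with a bacterial counterpart 1 was called, with medians of 1.26 and 0.74. The shares called higher were 30.8% of large and 16.7% of small subunit genes, and 44.4% of mitochondria-specific genes and 10% of those with a bacterial counterpart. Of mRNA exon features tested 23.8% were higher. Many genes passed the count filter through their ethanol libraries, so the class counts and medians are a description. The difference between the classes was not tested, and the calls are few.

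Mrpl54, which encodes the mitochondria-specific protein mL54, had 0.523, 1.03, 0.749 and 1.67 CPM in control replicates 1 to 4 and 2.20, 9.47, 3.21 and 5.19 CPM in ethanol replicates 1 to 4. The groups did not overlap, and the lowest ethanol library was replicate 1. Its log2 fold change was 2.30 ± 0.54 SE (edgeR adjusted p = 0.0287), or 1.76 ± 0.51 without ethanol replicate 2. Mrpl51, for the mitochondria-specific protein mL51, had 2.36, 2.33, 1.25 and 3.89 CPM in control and 6.76, 13.0, 6.22 and 7.61 CPM in ethanol libraries. All ethanol values stood above the highest control, that of replicate 4. The log2 fold change was 1.77 ± 0.42 (edgeR adjusted p = 0.0287), and 1.43 ± 0.37 without ethanol replicate 2. On the same strand Mrpl51 overlaps the microRNA gene Mir3098, so part of its counts could belong to that gene.

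Mrpl57, for mL63, had 0.785, 0.259, 0.499 and 2.23 CPM in control and 2.35, 7.79, 3.21 and 4.67 CPM in ethanol libraries, or 2.24 ± 0.57 on the log2 scale (edgeR adjusted p = 0.0294; 1.80 ± 0.56 without ethanol replicate 2, and 2.93 ± 0.63 without control replicate 4). Its groups were separated only by the small gap between control replicate 4 and ethanol replicate 1. Mrpl43, for mL43, had 1.05, 2.33, 0.749 and 2.23 CPM in control and 3.97, 7.79, 3.58 and 3.98 CPM in ethanol libraries. Ethanol replicates 1, 3 and 4 lay close together and replicate 2 far above them, without overlap with the controls. The log2 fold change was 1.59 ± 0.45 (edgeR adjusted p = 0.0358), but 1.22 ± 0.43 without ethanol replicate 2 and 1.62 ± 0.50 without ethanol replicate 4, and both ended the call (edgeR adjusted p = 0.0713 and 0.0588). An exon of Twnk, the mitochondrial DNA helicase gene, overlaps the last exon of Mrpl43 on the opposite strand, and reads of both strands cannot be told apart where counting ignores strand.

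Mrps6 encodes bS6m, a small subunit protein with a bacterial counterpart, and was the only small subunit gene called. It had 2.36, 0.776, 2.50 and 3.62 CPM in control and 7.78, 31.4, 3.58 and 10.03 CPM in ethanol libraries. Ethanol replicate 3 fell just under control replicate 4, so the groups overlapped, and ethanol replicate 2 was far above the rest. The log2 fold change was 2.50 ± 0.62 (edgeR adjusted p = 0.0288), the highest of the 19, and 1.57 ± 0.42 without ethanol replicate 2 (0.0203). Per length of transcript Mrps6 stood highest of the 77 genes in ethanol libraries, at 15.6 CPM per kb against 2.73 in control, where it ranked below Mrps25 (11.8), Mrps34 (3.002) and Mrps17 (2.92). That first place rested on ethanol replicate 2, without which Mrps25 stood highest at 13.9 and Mrps6 second at 8.43 CPM per kb. On the same strand it overlaps exons of Slc5a3 and Gm49711, so part of its counts could belong to these.

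**Figure D2:**
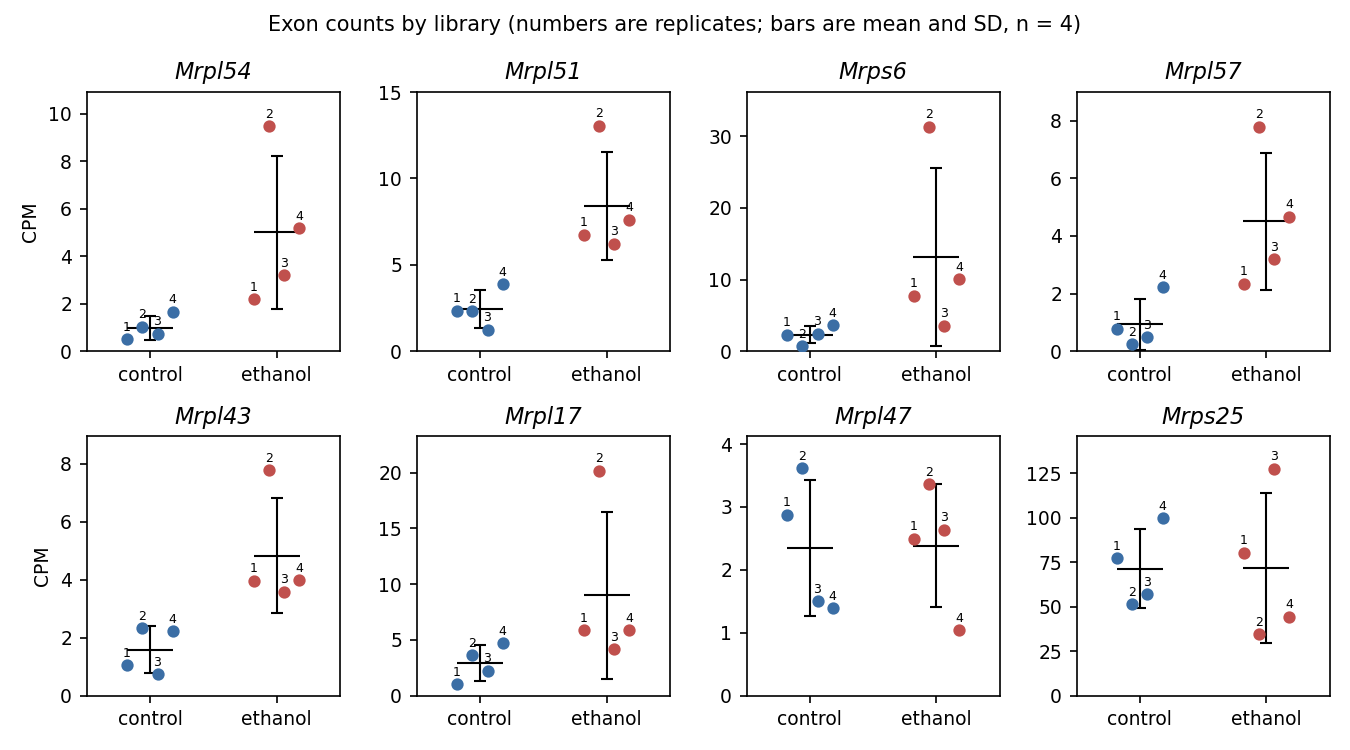
Level of 8 genes in each library, in CPM on linear axes that start at 0, with the replicate number above each point and bars for the mean and SD (n = 4). The 5 called genes are Mrpl54, Mrpl51, Mrps6, Mrpl57 and Mrpl43, each with ethanol replicate 2 highest, while the control and ethanol means of Mrpl47 and Mrps25 lie within 2% of each other.

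Of the 14 tested genes without a call, Mrpl17 came closest. It encodes bL17m of the large subunit, and had 1.05, 3.62, 2.25 and 4.73 CPM in control and 5.87, 20.2, 4.15 and 5.88 CPM in ethanol libraries. Ethanol replicate 3 lay below control replicate 4, and the log2 fold change was 1.62 ± 0.55 (edgeR adjusted p = 0.0616), or 0.82 ± 0.40 without ethanol replicate 2. Mrpl49, for the mitochondria-specific mL49, stood at 1.26 ± 0.48 on the log2 scale (edgeR adjusted p = 0.0864). Mrps7, for uS7m in the head of the small subunit, had 1.23 ± 0.49 (edgeR adjusted p = 0.0980). Mrpl20, whose bacterial counterpart is needed early in assembly of the large subunit, had 1.30 ± 0.55 (edgeR adjusted p = 0.117), or 0.61 ± 0.49 without ethanol replicate 2. Mrpl37, for mL37, had 1.04 ± 0.48 (edgeR adjusted p = 0.145).

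The 3 paralogs of bacterial protein S18 go to different places in the mitochondrial ribosome. Mrps18a, for mL66 of the large subunit, was too sparse to test and had 0.926 ± 0.378 CPM in control and 2.84 ± 1.502 CPM in ethanol libraries, without overlap. Mrps18b, for mS40, had 2.20 ± 1.58 and 4.27 ± 1.54 CPM with overlapping groups (log2 fold change 0.93 ± 0.48, edgeR adjusted p = 0.186). Mrps18c, for bS18m, was too sparse to test, with 0, 1.81, 0.250 and 0.556 CPM in control and 1.03, 4.63, 0.566 and 1.21 CPM in ethanol libraries. The ratio of its means, 2.84, was 1.43 without ethanol replicate 2 and 6.92 without control replicate 2. The 0 in control replicate 1 allows up to 0.785 CPM, the level of 3 counts, and the groups overlapped.

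The other 58 genes stayed under the count filter. Their control means ran from 0.193 to 1.78 CPM with a median of 0.822, near the level of 3 counts in a control library (0.749 to 0.834 CPM), and their ethanol means from 0.921 to 5.43 CPM with a median of 2.70. Of these 58, 57 had a higher mean in ethanol and 19 lay above all controls in every ethanol library. Of 5213 untested genes with total mRNA exon counts in the range of these 58, 74.1% and 11.4% did so. The non-overlapping genes include Mrpl12, which encodes the protein of the ribosomal stalk that recruits translation factors, and Mrps12, which encodes the small subunit protein at the decoding centre. Both were chosen for mention after their values were seen. Mrpl12 had 0.749 to 0.834 CPM in the controls and 1.76 to 8.63 in the ethanol libraries, and Mrps12 had 0.262 to 1.11 and 1.91 to 6.52 CPM.

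Mrps25, for the mitochondria-specific small subunit protein mS25, had about the same mean level in both groups. It had 77.5, 51.5, 57.2 and 99.9 CPM in control and 80.5, 34.7, 127.7 and 44.4 CPM in ethanol libraries. The ethanol libraries held both the highest and the lowest value, and ethanol replicate 2, highest for 73 genes, was the lowest here. The log2 fold change was 0.01 ± 0.46 (edgeR adjusted p = 0.992), an estimate whose sign turned with DESeq2 size factors (-0.04). Mrps25 supplied 35.7% to 49.6% of the counts of all 77 genes in control libraries and 6.69% to 46.0% in ethanol libraries. Without it the summed level of the other 76 genes was 78.8, 92.8, 82.6 and 109.3 CPM in control and 177, 484, 150.1 and 211 CPM in ethanol libraries, a ratio of means of 2.81. That ratio was 2.80 for the large subunit genes and 2.83 for the small subunit genes without Mrps25 (2.85 without Mrps36 as well). Without ethanol replicate 2 the ratios were 1.97 for the 76 genes, 2.05 for the large and 1.82 for the small subunit genes.

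Counts of Mrps25 sat almost wholly in its last exon, the fourth of 4, which is 5684 bases long and makes up 93.6% of the annotated transcript. The last exon held 98.3% of the gene's counts, with 71.0 ± 21.3 CPM in control and 70.0 ± 43.5 CPM in ethanol libraries. Its other 3 exons had 0, 1, 0 and 6 counts in control and 10, 25, 2 and 2 in ethanol libraries. In ethanol replicate 2 the last exon held 84.8% of the counts (95% Wilson interval 78.6 to 89.5), against 98.2% to 100% in the other 7 libraries. An exon of Nr2c2, a nuclear receptor gene, overlaps this last exon on the opposite strand, so counts of both genes may be mixed. Mrps25 was also the highest of the 77 genes per length in control libraries, at 11.8 CPM per kb, and the same at 11.8 in ethanol libraries.

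Other genes placed less of their counts in the last exon. Over the 76 genes without Mrps25 the last exon held 53.3% ± 2.84 of counts in control and 53.7% ± 2.83 in ethanol libraries, a difference smaller than the spread between replicates, while last exons make up 67.2% of their annotated length. Over all mRNA exon rows of genes with several exons the share was 43.8% ± 1.53 and 40.1% ± 7.53, with 29.4% in ethanol replicate 2. The last exon held over 50% of a gene's counts in 40 of the 77 genes.

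**Figure D3:**
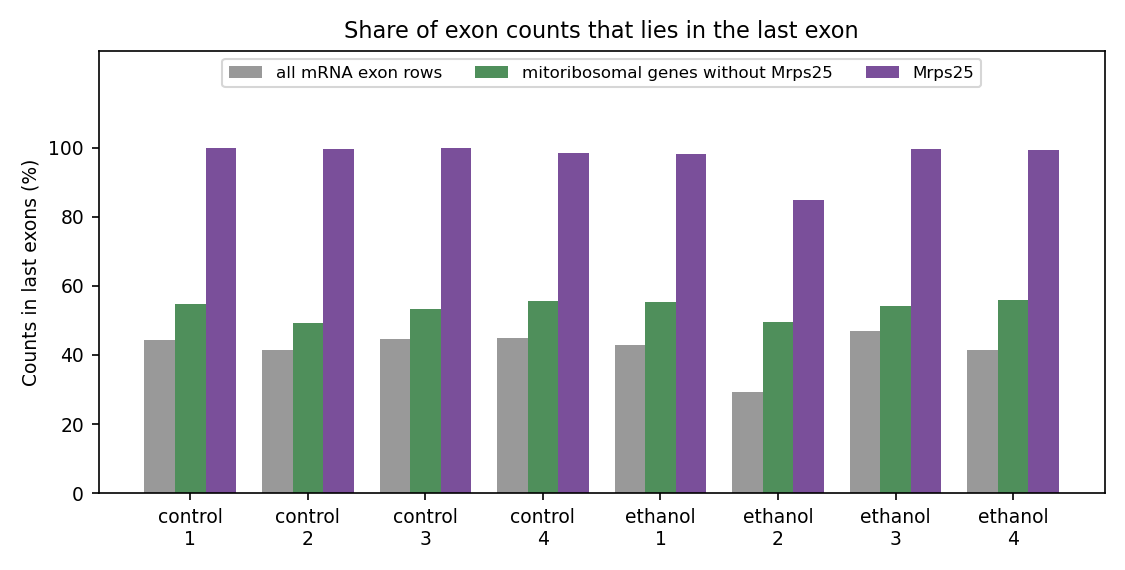
Share of exon counts in the last exon, in percent, for each library, as bars for all mRNA exon rows, the 76 genes without Mrps25, and Mrps25. The green bars stay between 49.3% and 55.8% in all 8 libraries, and the purple bars of Mrps25 at 84.8% or above.

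Single exon rows also differed in how far they moved. Of 389 exon rows 10 had at least 20 counts over the control libraries, each in another gene, and they held 55.3% of the control counts and 34.5% of the ethanol counts. Without Mrps25 the 9 rows had a summed ratio of ethanol to control of 2.10, while the other 379 rows went from 72.4 ± 13.0 to 218 ± 137 CPM, a ratio of 3.01. Since the 10 rows were picked for their control counts, the lower ratio is a description. Among the 9, the last exon of Mrps6 had a ratio of 5.07 (1.79 ± 1.16 to 9.10 ± 9.22 CPM), which fell to 2.54 without ethanol replicate 2, and that of Mrpl51 a ratio of 4.24 (1.38 ± 0.195 to 5.85 ± 1.69 CPM, without overlap). At the other end, the last exon of Mrpl19 had a ratio of 1.16. The second of 7 exons of Mrpl47, which encodes uL29m near the exit of the ribosomal tunnel, had 1.63 ± 0.560 CPM in control and 1.13 ± 0.341 CPM in ethanol libraries and held 69.4% and 49.1% of that gene's counts. Mrpl47 as a whole stood at 0.01 ± 0.45 on the log2 scale (edgeR adjusted p = 0.990).

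Introns of the same genes gave a readout that the choice of genes did not use, and their summed levels overlapped between the groups. The 257 intron rows summed to 61.2 to 69.6 CPM in control and 48.0 to 68.3 CPM in ethanol libraries, and ethanol replicate 2 was the lowest of the 8. Of 9 genes with enough intron counts 0 were higher and 0 lower (edgeR, with 0.271% of 5159 introns higher and 1.88% lower over the table), and at an unadjusted p under 0.05 the counts were 0 and 1. The DESeq2 Wald test and limma-voom also called 0 in either direction. The median log2 fold change was -0.15, and 3 of the 9 were positive. Mrps6, whose exons showed the highest fold change, had 8.95 ± 1.45 CPM of intron counts in control and 10.3 ± 2.70 CPM in ethanol libraries (log2 fold change 0.20, edgeR adjusted p = 0.709). No gene had intron counts in all ethanol libraries above all controls, and 2 of the 77, the untested Mrpl47 and Mrps5, had them below all controls, beside 0.675% and 5.85% of 19545 genes with any intron count. For Mrps5 these were 2.41 ± 0.638 and 1.08 ± 0.485 CPM.

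Promoters are shown for the called genes and for Mrps25, which had about the same mean level in both groups. The called genes were picked for a higher level in ethanol, so their shared direction follows from that choice. Shared regulation was not tested. Of the 77 genes 68 matched a promoter in RefSeq (GRCm38.p6), with 74 promoters in all. Each has 300 bases that end 50 bases past the annotated start. Mrpl54 was not among the matched genes. For each gene shown 1 window is printed, on the chromosome of its annotated transcript, and any entry on another chromosome was left out. Capitals mark CCGGAAG, a motif of the ETS family of transcription factors, searched on both strands (CTTCCGG on the other). The windows are chr6:125191950-125192249 (plus strand), chr14:57825989-57826288 (plus strand), chr19:45006393-45006692 (minus strand), chr16:92058086-92058385 (plus strand) and chr6:92183974-92184273 (minus strand).
Mrpl51: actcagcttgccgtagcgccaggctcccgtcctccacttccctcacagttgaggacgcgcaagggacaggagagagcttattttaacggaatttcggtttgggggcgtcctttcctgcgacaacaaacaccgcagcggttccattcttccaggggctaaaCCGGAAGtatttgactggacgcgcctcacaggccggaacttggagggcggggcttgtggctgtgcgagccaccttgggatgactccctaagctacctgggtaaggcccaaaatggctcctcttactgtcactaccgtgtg
Mrpl57: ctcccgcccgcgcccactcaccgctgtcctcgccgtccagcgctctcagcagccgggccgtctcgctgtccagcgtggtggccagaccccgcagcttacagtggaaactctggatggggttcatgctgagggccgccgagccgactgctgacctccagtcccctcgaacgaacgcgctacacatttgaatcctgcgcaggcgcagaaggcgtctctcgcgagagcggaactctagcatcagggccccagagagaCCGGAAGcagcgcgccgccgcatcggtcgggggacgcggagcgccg
Mrpl43: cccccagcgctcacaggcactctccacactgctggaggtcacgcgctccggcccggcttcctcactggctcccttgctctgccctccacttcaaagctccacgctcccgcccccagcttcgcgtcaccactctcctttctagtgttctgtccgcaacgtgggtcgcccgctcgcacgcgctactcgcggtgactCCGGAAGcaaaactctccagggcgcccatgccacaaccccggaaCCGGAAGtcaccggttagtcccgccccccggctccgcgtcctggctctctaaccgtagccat
Mrps6: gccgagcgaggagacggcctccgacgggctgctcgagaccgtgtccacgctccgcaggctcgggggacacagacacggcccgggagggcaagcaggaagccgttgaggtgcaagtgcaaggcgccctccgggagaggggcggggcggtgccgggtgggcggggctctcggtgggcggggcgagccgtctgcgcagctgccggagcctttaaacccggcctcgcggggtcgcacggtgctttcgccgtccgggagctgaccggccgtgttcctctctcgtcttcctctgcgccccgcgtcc
Mrps25: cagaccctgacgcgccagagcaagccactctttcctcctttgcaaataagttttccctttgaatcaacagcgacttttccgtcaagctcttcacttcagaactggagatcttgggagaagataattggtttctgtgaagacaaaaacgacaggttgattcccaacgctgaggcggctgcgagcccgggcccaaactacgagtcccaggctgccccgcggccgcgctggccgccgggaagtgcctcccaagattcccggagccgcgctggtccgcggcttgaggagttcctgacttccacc
Mrpl51 had 1 match, beginning 90 bases before the start, Mrpl57 had 1 just after the start, and Mrpl43 had 2, beginning 56 and 12 bases before the start. Mrps6 and Mrps25 had 0 in this window, which says only that these letters are not there. Among the 68 matched genes 25 held the motif in a promoter (36.8%), against 9.93% of 27025 genes with a promoter in the same table. A motif of NRF1, a factor known for regulating nuclear genes of mitochondria, was also searched on both strands, as GCGCNTGCGC or GCGCANGCGC, and was held by 13 of the 68 genes (19.1%) against 5.19% of all genes. A match is a description of the sequence and not a bound site.

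Other genes of mitochondrial translation were also sparse. Of 5 mitoribosomal genes without the Mrp prefix 3 were tested and 0 called in either direction by edgeR (median log2 fold change 1.33), with 2 higher at an unadjusted p under 0.05. Dap3, for mS29, stood at 1.37 ± 0.48 on the log2 scale (edgeR adjusted p = 0.0661) and Aurkaip1, for mS38, had 1.33 ± 0.43 (edgeR adjusted p = 0.0507). Both lay above all controls in every ethanol library, and the ratio of means of Dap3 was 2.62, or 1.65 without ethanol replicate 2. Of 19 assembly factor genes 3 were tested and 0 called by edgeR, 1 being higher at an unadjusted p under 0.05 (median 0.34), with the RNA helicase gene Dhx30 at 1.37 ± 0.56 (edgeR adjusted p = 0.103; a ratio of means of 2.63, or 1.67 without ethanol replicate 2) and the rRNA methyltransferase gene Nsun4 at -0.50 ± 0.33 (edgeR adjusted p = 0.304). Of 16 genes of translation factors and of the membrane insertase 6 were tested, 2 higher (33.3%) and 0 lower (median 0.87). These values stand beside 23.8% higher and a median of 0.88 for mRNA exon features. Gfm2, which recycles mitochondrial ribosomes after termination, went from 1.69 ± 0.872 to 4.85 ± 2.05 CPM without overlap (log2 fold change 1.49 ± 0.45, edgeR adjusted p = 0.0429). Oxa1l, which inserts new mitochondrial proteins into the inner membrane, went from 1.81 ± 1.29 to 6.02 ± 3.63 CPM with overlap (1.73 ± 0.54, edgeR adjusted p = 0.0464), a ratio of 3.33 that was 5.01 without control replicate 4. Of 20 genes of mitochondrial aminoacyl-tRNA synthesis, whose enzymes charge tRNAs, 4 were tested and 0 called by edgeR, 1 being higher at an unadjusted p under 0.05 (median -0.28). Iars2 was at 1.04 ± 0.48 (edgeR adjusted p = 0.149) and Aars2 at -0.30 ± 0.35 (edgeR adjusted p = 0.554).

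The cytosolic ribosome and respiratory complex I give 2 other sets of housekeeping genes to set beside these. Of 88 cytosolic ribosomal protein genes 82 were tested, and 77 of these were higher and 0 lower in ethanol, with a median log2 fold change of 2.14. Their sum was 508 to 729.9 CPM in control and 1149 to 5920 CPM in ethanol libraries. Of 37 nuclear genes of complex I 24 were tested, and 17 were higher and 0 lower, with a median of 2.03. These medians and shares stand beside 1.15 and 26.3% for the mitochondrial ribosomal protein genes, and beside 0.88 and 23.8% for mRNA exon features. The lists differ in counts per gene, and the differences between them were not tested. Like every mRNA exon feature, no gene of these lists was called higher without control replicate 1, 2 or 3.

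**Figure D4:**
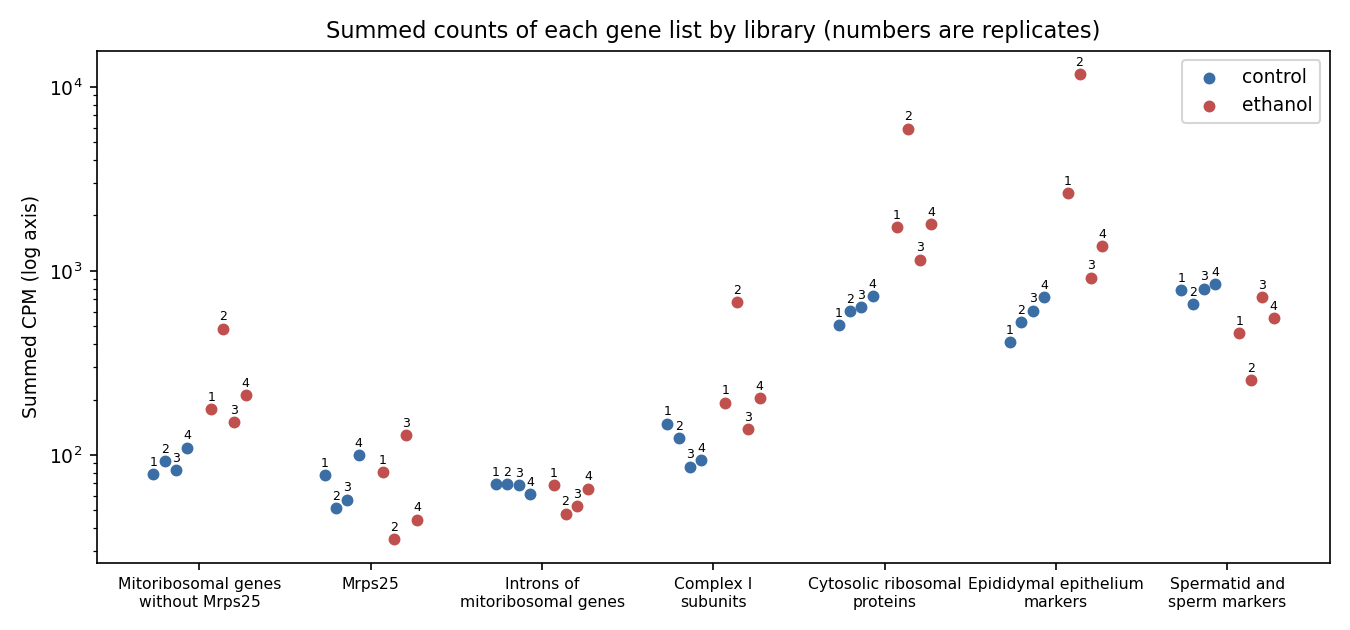
Summed level of each set of genes in each library, in CPM on a log axis, with the replicate number above each point. The 76 genes without Mrps25 sit at 78.8 to 109.3 CPM in control and 150.1 to 484 CPM in ethanol libraries, and their introns at 61.2 to 69.6 and 48.0 to 68.3 CPM, while the epididymal markers reach 11739 CPM in ethanol replicate 2.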

How the data were processed

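Small RNA of 8 mouse sperm samples was sequenced, 4 control and 4 ethanol, grouped by the sample titles. Per the file headers, the deposited table gives whole-number counts for each feature in each library, and no normalization by the authors is recorded. Whether they count reads or molecules, the aligner, the use of strand and the genome build are not given in the sources used here. Exon rows were summed per gene symbol, and rows of other classes by name. Rows of piRNA clusters were not summed, and the row with the most counts was kept for each name. Library totals were 3481865 to 6975180, so a gene with a few counts has a wide counting error, and Wilson intervals cover that error only.

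Counts of all features were fitted together in edgeR 4.0.16 under R 4.3.3, with TMM factors, filterByExpr at a minimum count of 10, a robust quasi-likelihood test of group, and Benjamini-Hochberg adjustment over all features tested at a threshold of 0.05. The standard error is the absolute log2 fold change divided by the square root of F. Alternatives were DESeq2 1.42.0, limma-voom (limma 3.58.1), a block for the replicate number, other scalings and count filters, mRNA exons alone, and libraries left out. Leaving out libraries and limma-voom in the fit of mRNA exons alone were chosen after seeing the data. Counts of genes at an unadjusted p under 0.05 were not set beside a share over all features.

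Exon order, lengths and overlaps came from GENCODE M21, matched by accession, and promoters from RefSeq. Python was used for shares and plots: Python 3.11.15 with pandas 2.3.3, scipy 1.17.1 and matplotlib 3.10.9. Genes named with statistics were up to 10 tested ones of smallest p a direction, the 4 with the highest mean CPM, the Mrps18 paralogs, the 2 with the smallest fold change, and from other lists up to 3 called genes or the 2 with the most CPM. The genes, the lists and the tests were chosen with earlier results of these data known.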

Additional observations from a re-analysis of the deposited data

Results flagged for a closer look

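Ethanol replicate 2 lay apart from the other 3 ethanol libraries in 5 of 36 groups of 4 values checked, by a gap larger than Dixon's 95% critical value; chance flags about 1 in 20 groups, and the values of a library are not independent of each other. It had 7.79 CPM of Mrpl43 (3.58 to 3.98 in the others), 20.2 CPM of Mrpl17 (4.15 to 5.88) and 4.63 CPM of Mrps18c (0.566 to 1.21). The 77 genes took 0.0709% of its counts (0.0211% to 0.0256% in the others) and mRNA exons 29.3% (6.94% to 9.73%).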

How the results depend on the processing

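With so few counts a gene, depth limits these results: 58 of 77 genes were not tested, and which genes are tested moves with the filter. The count of 5 higher genes (4 of the large and 1 of the small subunit) of 19 tested went to 0 (0 and 0) with limma-voom and with mRNA exon features alone. It was 14 of 58 (10 and 4) with a minimum count of 5, 1 of 2 (1 and 0) with a minimum count of 20 and 34 of 77 (24 and 10) with no filter, beside 16.8%, 27.6% and 15.1% of mRNA exon features. With ethanol replicates 1 and 2 only, whose codes begin with POM, it was 21 of 40 (15 and 6), beside 33.1%. With ethanol replicates 3 and 4 only, whose codes begin with POEM, it was 3 of 21 (3 and 0), beside 7.66%. Leaving out 1 library gave 0 to 18 higher genes (0 to 14 and 0 to 4), beside 0.0% to 36.5%. The causes were not tested, beyond the filters testing more or fewer genes. No alternative called a gene lower, and introns of these genes had 0 calls under each alternative run.

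The median log2 fold change of 1.15 became 1.58 with library totals, which moved the median of all features from -0.01 to 0.24. It was 1.61 with no filter, 0.19 with mRNA exon features alone, 1.84 with ethanol replicates 1 and 2 only and 0.69 with ethanol replicates 3 and 4 only, and 0.68 to 1.69 without 1 library. With mRNA exons alone, leaving out 1 library gave 0 to 2 higher genes and medians of 0.17 to 0.78. The share of mRNA exon counts was 0.0290 percentage points higher in ethanol, and 0.0636 without Mrps25. For the named genes, 193 of 234 values under alternatives stayed on their side of the threshold, 34 lost a call, 7 gained one and 0 called values changed sign. The calls of Mrpl54, Mrpl51, Mrps6, Mrpl57 and Mrpl43 each ended with limma-voom and without each control library (edgeR adjusted p 0.0615 to 0.147).

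With a replicate block, 8 of 19 genes were higher (42.1%, beside 37.1% of mRNA exon features), 6 of the large and 2 of the small subunit. Deviations of same-numbered samples correlated at 0.34, 0.21, -0.13 and -0.02, and 1 of 4 control libraries correlated best with its own number, so the numbers are not taken to pair the samples.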
